A study of Mus musculus with 3 samples.

Results

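Laminins, nidogens and the heparan sulfate proteoglycans perlecan and agrin are the non-collagen framework of basement membranes, and 10 of their genes were followed here across the cell classes of the fetal ovary. The genes were picked by name, from the 18738 genes listed in the count tables: the laminin α chains Lama1, Lama4 and Lama5, the β chains Lamb1 and Lamb2, the γ chain Lamc1, the nidogens Nid1 and Nid2, and the proteoglycan core proteins Hspg2 (perlecan) and Agrn (agrin). All 10 were present in the tables and all 10 passed the filter on low counts. The samples were 3 lots (26, 29 and 30) of fetal ovarian somatic cells (FOSCs) from CD1 mouse embryos at E12.5, each lot pooled from the embryos of 10 pregnant females. Cells carrying SSEA1, a germ cell antigen, or CD31, an endothelial antigen encoded by Pecam1, had been removed with magnetic beads, and the rest were frozen and thawed before 10X Genomics 3′ scRNA-seq. There was 1 condition, so cell classes were compared within the same lots, with the lot as the replicate (n = 3). What limits these cells as a picture of the gonad is the bead depletion, the freeze and thaw, and the pooling of embryos.

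A laminin is a trimer of an α, a β and a γ chain, and the chains are coiled together inside the cell before secretion. The α chain carries the end that binds integrins and dystroglycan at the cell surface, so the choice of α chain sets which receptors a laminin can engage. Laminin α1 is the chain of the earliest embryonic basement membranes, α4 is the chain of blood vessels and mesenchyme, and α5 is the chain of most mature epithelia. Nidogens bind the laminin γ1 chain and collagen IV, perlecan joins the laminin and collagen networks and holds growth factors, and agrin binds laminin and dystroglycan. In the fetal gonad a basement membrane lies around the cords that hold the germ cells. Under the coelomic epithelium it breaks down while the genital ridges form, as the paper states.

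Promoter sequence is shown for the 4 genes whose levels separated the classes and whose window lay outside the annotated gene: Lama5 (highest of the 3 large classes in epithelial-like cells), Nid1 and Lamb1 (highest there in stromal-like cells) and Hspg2 (highest in endothelial-like cells). Each run is 190 bases of the sense strand, starting 250 bases before the RefSeq transcript start, on GRCm38.p6, with matches to the GC box GGGCGG, the CCAAT box CCAAT and the TATA box TATAAA in capitals, on either strand. Lama5 lies at chr2:180225920-180226109 on the minus strand, Nid1 at chr13:13437352-13437541 on the plus strand, Lamb1 at chr12:31265043-31265232 on the plus strand and Hspg2 at chr4:137468553-137468742 on the plus strand.
Lama5: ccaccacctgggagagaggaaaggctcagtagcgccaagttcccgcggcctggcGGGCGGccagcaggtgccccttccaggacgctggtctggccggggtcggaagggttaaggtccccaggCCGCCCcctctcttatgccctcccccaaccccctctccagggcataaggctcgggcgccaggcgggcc
Nid1: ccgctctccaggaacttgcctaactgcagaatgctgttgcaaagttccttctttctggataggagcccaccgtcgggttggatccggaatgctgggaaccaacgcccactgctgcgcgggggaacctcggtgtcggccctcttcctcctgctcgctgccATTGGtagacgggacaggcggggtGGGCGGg
Lamb1: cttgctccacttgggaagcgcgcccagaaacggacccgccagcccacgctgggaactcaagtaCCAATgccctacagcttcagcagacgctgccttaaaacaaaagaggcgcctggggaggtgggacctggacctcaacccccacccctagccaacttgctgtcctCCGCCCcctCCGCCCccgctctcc
Hspg2: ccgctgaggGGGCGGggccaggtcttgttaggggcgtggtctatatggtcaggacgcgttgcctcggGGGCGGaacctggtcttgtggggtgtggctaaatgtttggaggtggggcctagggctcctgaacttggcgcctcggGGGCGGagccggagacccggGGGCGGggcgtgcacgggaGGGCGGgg
The 4 windows held between 62.6% and 71.1% G and C, where the median of all 32851 promoters in the table was 51.6%. A GC box was present in all 4 windows, 5 times in Hspg2, 2 times in Lama5 and Lamb1 and 1 time in Nid1, while 22.8% of all promoters held it in the same window. The CCAAT box was found in Nid1 and Lamb1 (26.7% of all promoters) and the TATA box in none of the 4 (8.73% of all promoters). RefSeq promoters were available for 6 of the 10 genes. The 4 windows were picked to lie outside the annotated gene, while the set of all promoters was not filtered in this way. Of the windows not shown, that of Lamb2 held 0 GC boxes and 44.7% G and C, and those of Agrn held 9 and 0.

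The genes lie apart from each other in the genome. On GRCm38, in the GENCODE annotation, Lama1 (ENSMUSG00000032796) spans chr17:67697259-67822647, Lama4 (ENSMUSG00000019846) spans chr10:38965515-39110188 and Lama5 (ENSMUSG00000015647) spans chr2:180176373-180225859. Lamb1 (ENSMUSG00000002900) and Lamb2 (ENSMUSG00000052911) span chr12:31265234-31329644 and chr9:108479736-108490530, and Lamc1 (ENSMUSG00000026478) spans chr1:153218922-153332786. Nid1 (ENSMUSG00000005397) and Nid2 (ENSMUSG00000021806) lie at chr13:13437551-13512269 and chr14:19751265-19811787. Hspg2 (ENSMUSG00000028763) and Agrn (ENSMUSG00000041936) share chromosome 4, at chr4:137468769-137570630 and chr4:156165290-156197488. Genes on the opposite strand overlap Nid1 (the antisense transcript Gm48682, over 8063 bases), Nid2 (the protein-coding gene Rtraf, over 437 bases) and Lamc1 (the pseudogene Gm8818). Since the strand setting of the counting is not given in the sources used here, reads of these could not be told apart. On the same strand Gm38009 overlaps Lamc1 and a miRNA gene overlaps each of Lama5 and Hspg2, and strand would not separate these.

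The lots held 87494974 to 141920060 UMIs, and 28971 of 29103 barcodes passed the study's filters, with lot medians of 8949 to 11595 UMIs a cell. Between 19 and 30 barcodes were shared by each pair of lots. With the 10 genes and their pathway lists kept out of the variable genes, the cells fell into 20 clusters, which were named from marker lists: 11939 pre-granulosa-like, 6041 epithelial-like, 6495 stromal-like, 1473 germ-like, 389 Sertoli-like, 349 endothelial-like, 134 macrophage-like and 77 red-blood-cell-like cells, with 2074 cells in 4 unnamed clusters. Sertoli-like cells, the supporting cells of a testis, came mainly from lot 29 (284 of 389) and had 16 cells in lot 30. Endothelial-like cells were what was left after CD31 depletion, at 0.813% to 1.79% of each lot. Levels are UMIs of a gene per 1000000 UMIs (CPM) of all cells of a class in a lot, as mean ± SD over 3 lots, and fewer cells with a transcript and less transcript per cell cannot be told apart in them. Because 3′ tags do not scale with transcript length, each gene is compared with itself between classes.

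Red-blood-cell-like cells, which should lack these transcripts, gave the level that free RNA could reach. Their 840609 UMIs held 1 to 14 UMIs of each gene, or 1.19 CPM (Lama4 and Nid2) to 16.7 CPM (Lamb1) over all lots, at a median of 9210 UMIs a cell. Lama5 in pre-granulosa-like, stromal-like and germ-like cells, and Lama4 in epithelial-like and germ-like cells, lay at 1.98 to 4.09 CPM. Nid1 in germ-like cells was at 6.14 CPM, and Nid2 and Lama4 in pre-granulosa-like cells were at 4.18 and 5.10 CPM. Red-blood-cell-like cells gave 3 UMIs of Lama5 (3.57 CPM) and 1 UMI of Lama4 (1.19 CPM), all in lot 30. They also gave 4 UMIs of Nid1 (4.76 CPM) and 1 UMI of Nid2 (1.19 CPM). With so few UMIs there, these low levels could not be told apart from free RNA at this depth. Endothelial markers (11 genes, all measured) summed to 2777 to 4747 CPM in endothelial-like cells and to 42 to 107 CPM in pre-granulosa-like, epithelial-like and stromal-like cells.

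**Figure D1:**
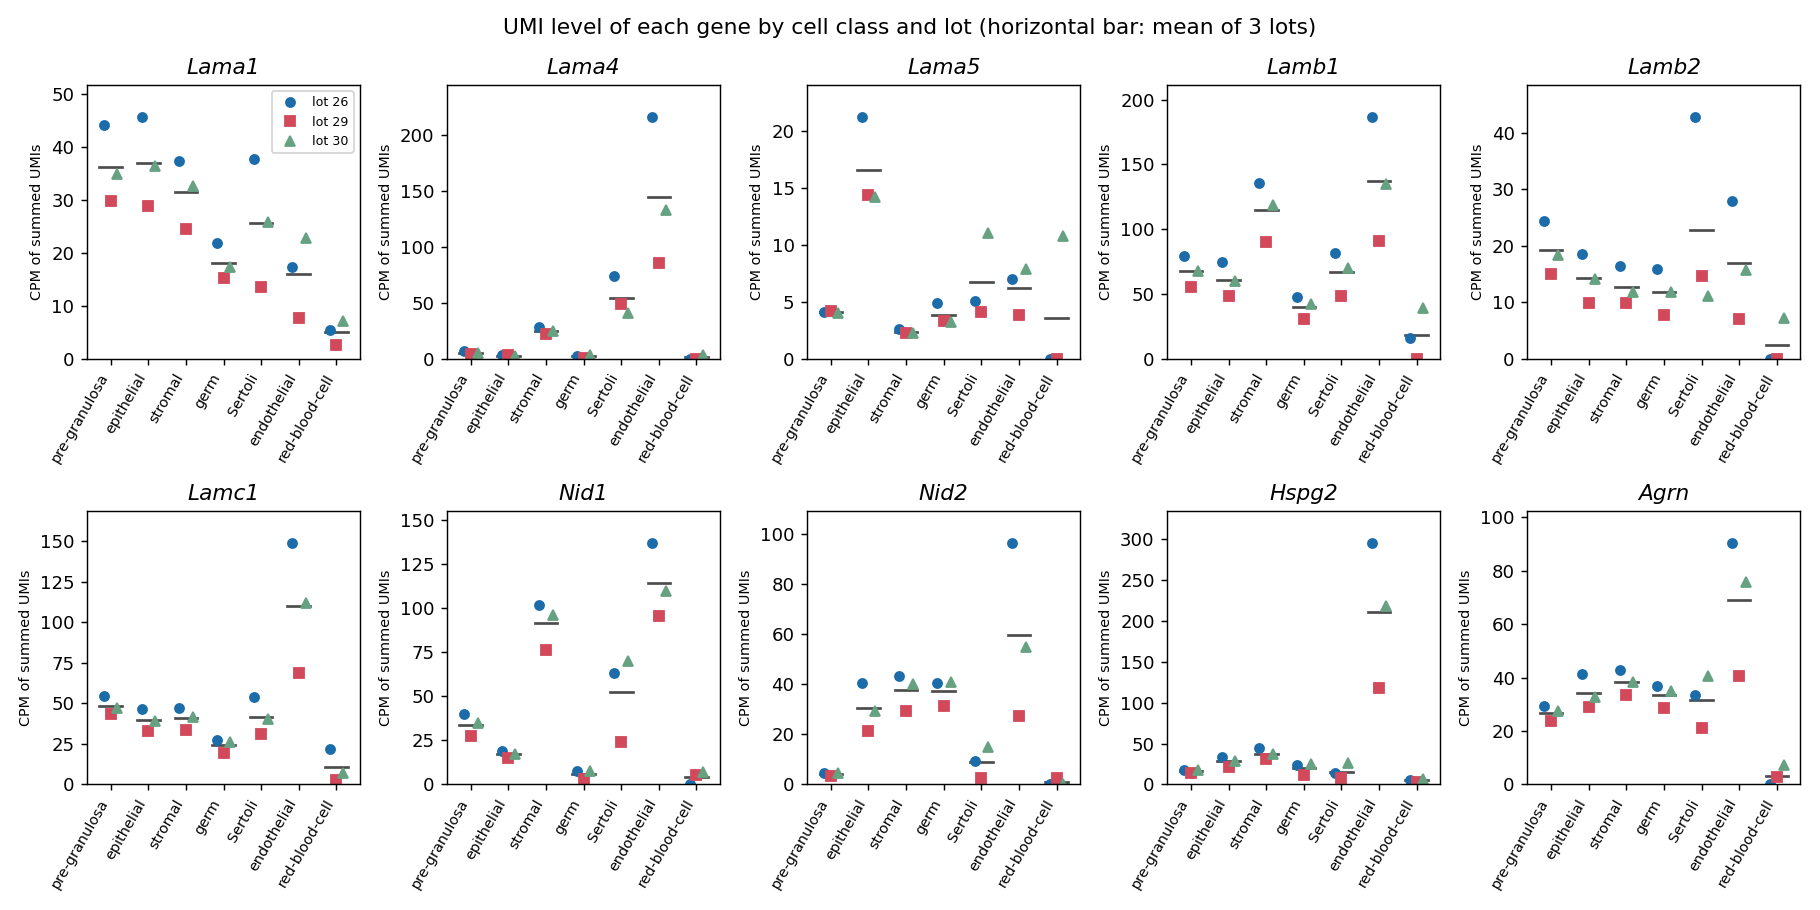
CPM (y axis, linear, from 0, own scale for each panel) of the 10 genes in 7 cell classes (x axis), with 1 point per lot and a bar at the mean of the 3 lots. Lama4 and Hspg2 stood highest in endothelial-like cells (means of 145 and 210 CPM), Lama5 in epithelial-like cells (16.6 CPM), and lot 29 lay lowest in 54 of 60 combinations of a gene with 1 of the 6 classes other than red-blood-cell-like.

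Of the 10 genes, 5 differed between epithelial-like and pre-granulosa-like cells (edgeR quasi-likelihood test, Benjamini-Hochberg adjusted p under 0.05 over 13817 genes). Nid2, Lama5 and Hspg2 were higher and Nid1 and Lama4 lower in epithelial-like cells, against 22.1% of all genes called higher and 23.2% called lower. Without lot 30 the count of 5 was 3, with Lama4 (adjusted p = 0.0708) and Hspg2 (0.104) no longer called, and with the lot as a block it was 8. Stromal-like cells differed from pre-granulosa-like cells in 7 genes, with Nid2, Lama4, Nid1, Hspg2 and Lamb1 higher (23.9% of all genes) and Lama5 and Lamb2 lower (24.5%). Between stromal-like and epithelial-like cells 4 genes differed, with Lama4, Nid1 and Lamb1 higher (16.2%) and Lama5 lower (14.5%) in stromal-like cells. The median log2 fold change of the 10 genes was -0.09, 0.54 and 0.16 in the 3 comparisons, where the median of all genes lay between -0.01 and -0.00.

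The smaller classes were set against the mean of the log2 levels of the 3 large classes or, for Sertoli-like cells, against pre-granulosa-like cells. A large class with a low level pulls that mean down. In germ-like cells 6 genes were lower (40.5% of all genes) and Nid2 was higher (36.6%), and DESeq2 size factors moved the median of all genes there by 0.12 on the log2 scale. In endothelial-like cells 7 genes were higher (19.6%) and Lama1 was lower (21.9%), with a median log2 fold change of 1.25 for the 10 genes and -0.08 for all genes. In Sertoli-like cells Lama4 was higher (17.4%) and Lama1 lower (19.3%), and without lot 30 the count of 2 was 1. The sums of a lot come from the same pool, and a fit with the lot as a block called 11 further differences, which are given below by gene.

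**Figure D2:**
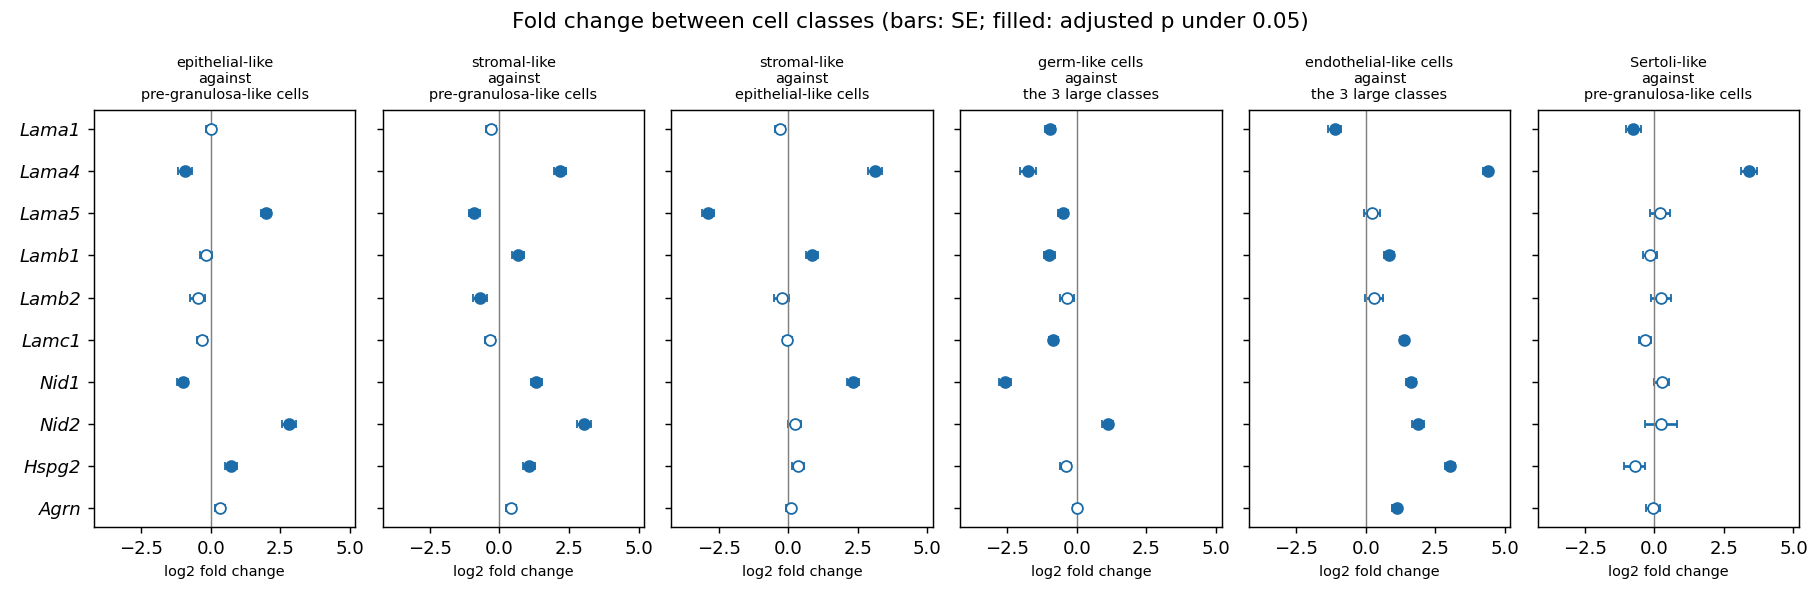
Log2 fold change (x axis) of each of the 10 genes (y axis) in 6 comparisons of cell classes, with SE as bars and filled points for an adjusted p under 0.05. Lama4 moved in all 6 comparisons, from -1.74 in germ-like cells to 4.39 in endothelial-like cells.

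Lama1, the α chain of early embryonic laminin, was the evenest of the α chains in the large classes. It stood at 44.1, 29.8 and 34.9 CPM in pre-granulosa-like cells of lots 26, 29 and 30, at 45.7, 28.9 and 36.3 CPM in epithelial-like cells, and at 37.3, 24.4 and 32.6 CPM in stromal-like cells. The 3 classes overlapped across lots, and the epithelial-like and pre-granulosa-like means (37.0 ± 8.4 and 36.3 ± 7.3 CPM) differed by a log2 fold change of -0.00 ± 0.18 (SE, adjusted p = 1.0), with 2 SE reaching from -0.36 to 0.36. With the lot as a block, stromal-like cells were lower than pre-granulosa-like cells (log2 fold change -0.31, adjusted p = 0.00159) and than epithelial-like cells (-0.31, adjusted p = 0.00272). Clustering at resolution 0.4 gave both calls without the block (-0.61, adjusted p = 0.00763, and -0.55, 0.0226). Lama1 fell in germ-like cells (18.1 ± 3.3 CPM, log2 fold change -0.96 ± 0.17, adjusted p = 1.54e-05), in endothelial-like cells (16.0 ± 7.6 CPM, -1.11 ± 0.24, adjusted p = 0.000543) and in Sertoli-like cells (25.7 ± 12.1 CPM, -0.76 ± 0.27, adjusted p = 0.0284). The call in Sertoli-like cells was lost without lot 29 (log2 fold change -0.29, adjusted p = 0.429) and without lot 30 (-0.80, 0.0980), and in DESeq2 (-0.62, 0.138), with DESeq2 size factors (-0.74, 0.0555) and in a fit of only the classes compared (-0.72, 0.0519).

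Lama4, the vascular and mesenchymal α chain, spanned the widest range. Endothelial-like cells held 216, 85.3 and 133 CPM in lots 26, 29 and 30, and every one of these was above every sum of the other named classes. Their mean was 145 ± 66 CPM, where stromal-like cells, the highest of the large classes, had a mean of 25.1 CPM. Against the mean log2 level of the 3 large classes the fit gave 20.9-fold (log2 fold change 4.39 ± 0.17, adjusted p = 2.62e-17). Sertoli-like cells came next at 74.0, 48.8 and 40.6 CPM, a log2 fold change of 3.40 ± 0.27 over pre-granulosa-like cells (adjusted p = 1.08e-10), resting on 11 UMIs in lot 30. The size of this fold is uncertain, since the pre-granulosa-like level could not be told apart from free RNA.

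Among the large classes Lama4 was a stromal chain. Stromal-like cells held 28.3, 21.7 and 25.1 CPM, pre-granulosa-like cells 6.42, 4.03 and 4.86 CPM and epithelial-like cells 3.00, 2.91 and 2.42 CPM, and the stromal-like sums overlapped with neither of the others. The fold changes of stromal-like cells were 4.55 over pre-granulosa-like cells (adjusted p = 5.90e-09) and 8.63 over epithelial-like cells (adjusted p = 1.40e-10). Neither the pre-granulosa-like nor the epithelial-like level could be told apart from free RNA, so the size of both folds is uncertain. Endothelial markers summed to 60 to 72 CPM in stromal-like cells and 42 to 51 CPM in pre-granulosa-like cells, and 87 to 107 CPM in epithelial-like cells. Perivascular markers (9 genes) were at 250 to 349 CPM in stromal-like, 63 to 65 CPM in pre-granulosa-like and 102 to 127 CPM in epithelial-like cells, and the part of either marker list in the Lama4 level was not tested. In germ-like cells Lama4 was at 1.98 ± 1.22 CPM (log2 fold change -1.74 ± 0.29, adjusted p = 5.11e-06), also not told apart from free RNA.

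Lama5, the α chain of mature epithelia, had the reverse order in the large classes. It stood at 21.2, 14.4 and 14.2 CPM in epithelial-like cells, at 4.12, 4.17 and 3.97 CPM in pre-granulosa-like cells and at 2.60, 2.21 and 2.21 CPM in stromal-like cells, with no overlap among the 3 classes. The epithelial-like level was 3.98-fold that of pre-granulosa-like cells (log2 fold change 1.99 ± 0.19, adjusted p = 2.11e-09) and 7.42-fold that of stromal-like cells (adjusted p = 2.30e-11). Both lower levels could not be told apart from free RNA, so these folds and the order of the 2 lower classes are uncertain. Germ-like cells were at 3.82 ± 0.92 CPM, with the same limit, below the mean log2 level of the large classes (log2 fold change -0.50 ± 0.19, adjusted p = 0.0203). That call was lost without lot 29 (-0.48, adjusted p = 0.0590), without lot 30 (-0.36, 0.200), in DESeq2 (-0.39, 0.0903) and with DESeq2 size factors (-0.38, 0.0882). In endothelial-like cells (6.25 ± 2.10 CPM) and Sertoli-like cells (6.76 ± 3.77 CPM, 3 UMIs in lot 30) Lama5 did not pass the test.

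The mix of α chains was also read as the share of each among all laminin α UMIs. Lama1 made up 74.3% ± 0.9 of the α chain UMIs in pre-granulosa-like cells, with Lama4 at 10.4% ± 0.5 and Lama5 at 8.6% ± 1.6. Epithelial-like cells held 63.3% ± 2.7 Lama1 and 28.5% ± 2.3 Lama5, and stromal-like cells 46.1% ± 3.3 Lama1, 37.1% ± 0.6 Lama4 and 12.4% ± 2.4 Lama2, the α chain of muscle and nerve laminin. In endothelial-like cells 85.6% ± 5.0 of the α UMIs were Lama4, as were 60.8% ± 8.1 in Sertoli-like cells, where Lama2 had no UMI in any lot. Germ-like cells, at low levels, held 64.9% ± 3.1 Lama1, 13.6% ± 1.9 Lama5 and 12.7% ± 2.8 Lama3, the α chain of skin-type laminin. These shares are descriptions across 5 α genes without a test, and the chains may differ in how well 3′ tags capture them.

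**Figure D3:**
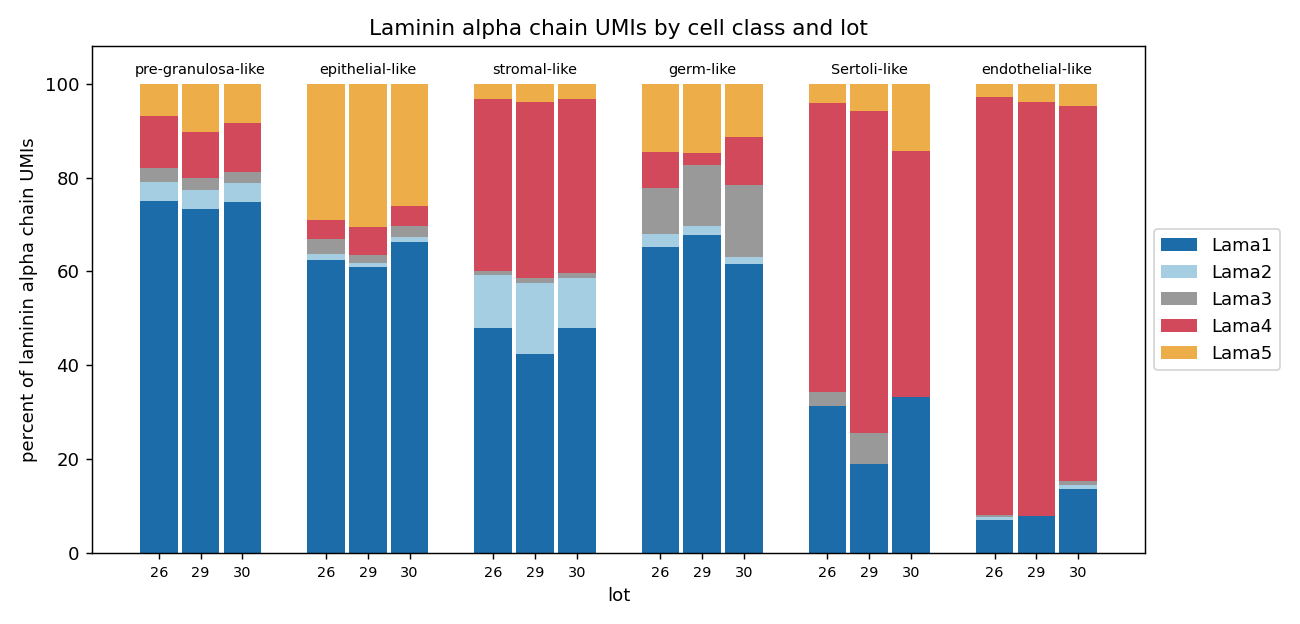
Percent of laminin α chain UMIs (y axis, from 0 to 100) given by Lama1, Lama2, Lama3, Lama4 and Lama5 in each lot (x axis) of 6 cell classes, as stacked bars. Lama1 took most of the bar in pre-granulosa-like cells (74.3%), Lama4 in endothelial-like cells (85.6%), and Lama5 was largest in epithelial-like cells (28.5%).

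Lamb1, the β chain of early laminins, was present in all 3 large classes and, of the named classes, highest in endothelial-like and stromal-like cells. Stromal-like cells held 136, 89.9 and 119 CPM, pre-granulosa-like cells 79.1, 55.1 and 67.8 CPM and epithelial-like cells 74.3, 48.1 and 60.2 CPM. All 3 stromal-like sums were above all sums of the other 2 classes, with log2 fold changes of 0.67 ± 0.22 (adjusted p = 0.0124) and 0.84 ± 0.22 (adjusted p = 0.00378). Without lot 30 these were 0.61 (adjusted p = 0.131) and 0.82 (0.0738). Endothelial-like cells reached 138 ± 48 CPM (log2 fold change 0.85 ± 0.19 against the 3 large classes, adjusted p = 0.000563), and germ-like cells were at 40.2 ± 8.8 CPM (-0.99 ± 0.19, adjusted p = 5.74e-05).

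Lamb2, the β chain of kidney and neuromuscular laminins, ran the other way. It stood at 24.5, 15.1 and 18.3 CPM in pre-granulosa-like cells and at 16.5, 9.79 and 11.8 CPM in stromal-like cells, so that the classes overlapped across lots while each lot ran in the same direction (log2 fold change -0.70 ± 0.26, adjusted p = 0.0302). The call was lost without lot 30 (-0.72, adjusted p = 0.186), in DESeq2 (-0.67, 0.183) and with DESeq2 size factors (-0.66, 0.0647). Epithelial-like cells held 14.2 ± 4.4 CPM, and their difference from pre-granulosa-like cells was called only with the lot as a block (log2 fold change -0.47, adjusted p = 0.000113, against 0.148 without it). The same was true of germ-like cells (11.8 ± 4.0 CPM), at -0.41 and adjusted p = 0.000867 with the block and 0.175 without it. Of the UMIs of both β chains, Lamb1 gave 77.9% ± 1.3 in pre-granulosa-like, 81.3% ± 1.5 in epithelial-like and 90.1% ± 0.9 in stromal-like cells.

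Lamc1, the γ chain shared by most laminins, was close to even in the large classes. It was at 54.8, 43.3 and 46.9 CPM in pre-granulosa-like, 46.3, 32.7 and 39.4 CPM in epithelial-like and 47.2, 33.5 and 41.7 CPM in stromal-like cells. The 3 classes overlapped, and stromal-like and epithelial-like cells differed by a log2 fold change of -0.03 ± 0.17 (adjusted p = 0.929), with 2 SE reaching from -0.36 to 0.31. With the lot as a block, Lamc1 was lower than in pre-granulosa-like cells in epithelial-like cells (-0.32, adjusted p = 0.000784), stromal-like cells (-0.35, adjusted p = 0.000332) and Sertoli-like cells (-0.32, adjusted p = 0.0463). Removing doublets gave the same 3 calls without the block (adjusted p = 0.0319, 0.0386 and 0.0361). A fit of only the classes compared called the epithelial-like (0.0392) and stromal-like (0.0255) differences. Endothelial-like cells stood at 110 ± 40 CPM (log2 fold change 1.39 ± 0.15, adjusted p = 1.55e-08) and germ-like cells at 24.3 ± 4.4 CPM (-0.84 ± 0.15, adjusted p = 2.14e-05).

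A laminin needs all 3 chain types, so cells with a UMI of an α, a β and a γ gene were counted after thinning each cell to 4000 UMIs. At that depth the share was 1.19% ± 0.49 in pre-granulosa-like, 1.34% ± 0.63 in epithelial-like, 1.94% ± 0.84 in stromal-like and 0.264% ± 0.262 in germ-like cells. Endothelial-like cells had 10.5% ± 9.3, from 1.15% to 19.7% across lots, and macrophage-like and red-blood-cell-like cells had none. Before thinning the same shares were 11.3%, 19.1%, 14.5%, 14.7% and 51.4%, in classes of unequal depth (median 10168, 13302, 9278, 21213 and 14820 UMIs). The thinned shares of the 3 large classes lay within the spread of the lots, and at 4000 UMIs a missing chain mostly says that it was not detectable at this depth. Thinning left out 57, 27, 147, 9 and 5 cells of the 5 classes.

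Nid1 and Nid2, the laminin and collagen IV linkers, were spread differently over the same cells. Nid1 was at 102, 76.5 and 96.0 CPM in stromal-like cells, 39.7, 27.4 and 34.7 CPM in pre-granulosa-like cells and 19.2, 15.0 and 17.2 CPM in epithelial-like cells, with no overlap among the 3. Stromal-like cells were 2.51-fold above pre-granulosa-like cells (adjusted p = 3.20e-06) and 5.06-fold above epithelial-like cells (adjusted p = 1.24e-09), and epithelial-like cells were below pre-granulosa-like cells (log2 fold change -1.01 ± 0.20, adjusted p = 0.000196). Germ-like cells were lowest of the 6 classes at 6.14 ± 2.54 CPM (log2 fold change -2.59 ± 0.22, adjusted p = 5.64e-11), a level not told apart from free RNA. Endothelial-like cells were highest at 114 ± 21 CPM (1.63 ± 0.17, adjusted p = 1.70e-08), with sums that overlapped those of stromal-like cells.

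Nid2 was low in pre-granulosa-like cells and higher in both of the other large classes. It stood at 4.65, 3.16 and 4.71 CPM in pre-granulosa-like cells, at 40.6, 21.5 and 29.3 CPM in epithelial-like cells and at 43.2, 29.5 and 40.3 CPM in stromal-like cells. The pre-granulosa-like sums lay below all of the others, by 7.03-fold against epithelial-like cells (adjusted p = 1.03e-09) and 8.28-fold against stromal-like cells (adjusted p = 1.60e-10). The pre-granulosa-like level could not be told apart from free RNA, so the size of both folds is uncertain. Epithelial-like and stromal-like cells did not differ beyond their spread (log2 fold change 0.24 ± 0.23, adjusted p = 0.474). Nid2 was the member called higher in germ-like cells, at 40.5, 31.2 and 40.7 CPM (log2 fold change 1.11 ± 0.19 against the 3 large classes, adjusted p = 9.35e-06). The mean log2 level it was set against includes the low pre-granulosa-like level, and the germ-like sums lay beside those of stromal-like cells. Nid1 accordingly made up 89.1% ± 0.9 of nidogen UMIs in pre-granulosa-like cells, 71.0% ± 1.1 in stromal-like, 36.7% ± 4.5 in epithelial-like and 13.6% ± 3.7 in germ-like cells. In these shares the Nid2 part of pre-granulosa-like cells and the Nid1 part of germ-like cells carry the free RNA limit. Endothelial-like cells held 96.3, 27.1 and 55.0 CPM of Nid2 (log2 fold change 1.89 ± 0.22, adjusted p = 1.00e-07).

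Hspg2, the perlecan core protein, was above all an endothelial transcript. Endothelial-like cells held 295, 118 and 218 CPM, each above every sum of the other named classes, and were 8.16-fold above the 3 large classes (log2 fold change 3.03 ± 0.17, adjusted p = 6.15e-14). Stromal-like cells stood at 44.7, 30.5 and 37.8 CPM, epithelial-like cells at 33.6, 21.6 and 29.2 CPM and pre-granulosa-like cells at 18.1, 13.9 and 17.998 CPM. The pre-granulosa-like sums were the lowest and did not overlap with the others, and the rises were 1.65-fold in epithelial-like cells (adjusted p = 0.00911) and 2.10-fold in stromal-like cells (adjusted p = 0.000228). The epithelial-like rise was not called without lot 26 (adjusted p = 0.0665), without lot 30 (0.104), in DESeq2 (0.0842) or with doublets removed (0.0818). The stromal-like and epithelial-like classes overlapped, and differed only with the lot as a block (log2 fold change 0.35, adjusted p = 0.00704, against 0.251 without it). Germ-like cells had 20.04 ± 7.83 CPM, with an adjusted p of 0.0686 without the block and 0.000527 with it (log2 fold change -0.43), and of 0.0370 without lot 29.

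Agrn was the evenest of the nidogen and proteoglycan genes. It was at 29.3, 23.6 and 27.5 CPM in pre-granulosa-like, 41.3, 28.9 and 32.6 CPM in epithelial-like, 42.8, 33.5 and 38.4 CPM in stromal-like and 36.8, 28.5 and 34.96 CPM in germ-like cells. None of the comparisons among these classes passed the test in the main fit, while several alternatives called 2 of them. With the lot as a block Agrn was higher than in pre-granulosa-like cells in epithelial-like cells (log2 fold change 0.32, adjusted p = 0.00408) and stromal-like cells (0.41, adjusted p = 0.000420, against 0.0535 without it). Without lot 29 the unblocked fit called both as well (adjusted p = 0.0350 and 0.0117), as did a fit of only the classes compared (0.0369 and 0.00585). The stromal-like rise was also called at resolution 0.4 (adjusted p = 0.00869), at resolution 1.2 (0.0315) and with 30 principal components (0.0215). The same held with the genes kept out of clustering put back (0.0445) and with every barcode (0.0288). Endothelial-like cells reached 68.9 ± 25.5 CPM (1.11 ± 0.17, adjusted p = 4.47e-06). Of the UMIs of both proteoglycans, Hspg2 gave 75.0% ± 1.3 in endothelial-like, 49.4% ± 1.7 in stromal-like, 45.0% ± 2.2 in epithelial-like and 38.3% ± 1.3 in pre-granulosa-like cells.

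Within the classes the clusters were not alike. Cluster 10, an epithelial-like cluster with Krt19, Tm4sf5 and Pappa2 as its leading genes and Hand2 and Rspo3 among its top 10, held 35.1 CPM of Lama5, where the other 3 epithelial-like clusters held 11.1 to 16.8 CPM, and 21.3 CPM of Lama1, where they held 32.2 to 46.5 CPM. In the stromal-like clusters Lama4 ran from 17.0 CPM in cluster 3 to 36.5 CPM in cluster 9, and Nid1 from 79.8 to 126 CPM in the same 2. Pre-granulosa-like cluster 2 had more Lamb2 (26.6 CPM) and less Nid2 (2.8 CPM) than clusters 0 and 1 (17.0 and 18.6 CPM of Lamb2, 5.0 and 4.8 CPM of Nid2). Outside the named classes, cluster 17, led by Chgb, Chga and Phox2a, held 34.5 CPM of Lama5, close to cluster 10. Unnamed clusters 12 and 14 held 111 and 114 CPM of Lamb1, close to stromal-like cells. Clusters were cut from the same cells, so these are descriptions without a test. Cluster 1 came mostly from lot 30 (2944 of 3232 cells), and 46.0% of the cells of stromal-like cluster 11 were called as doublets.

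**Figure D4:**
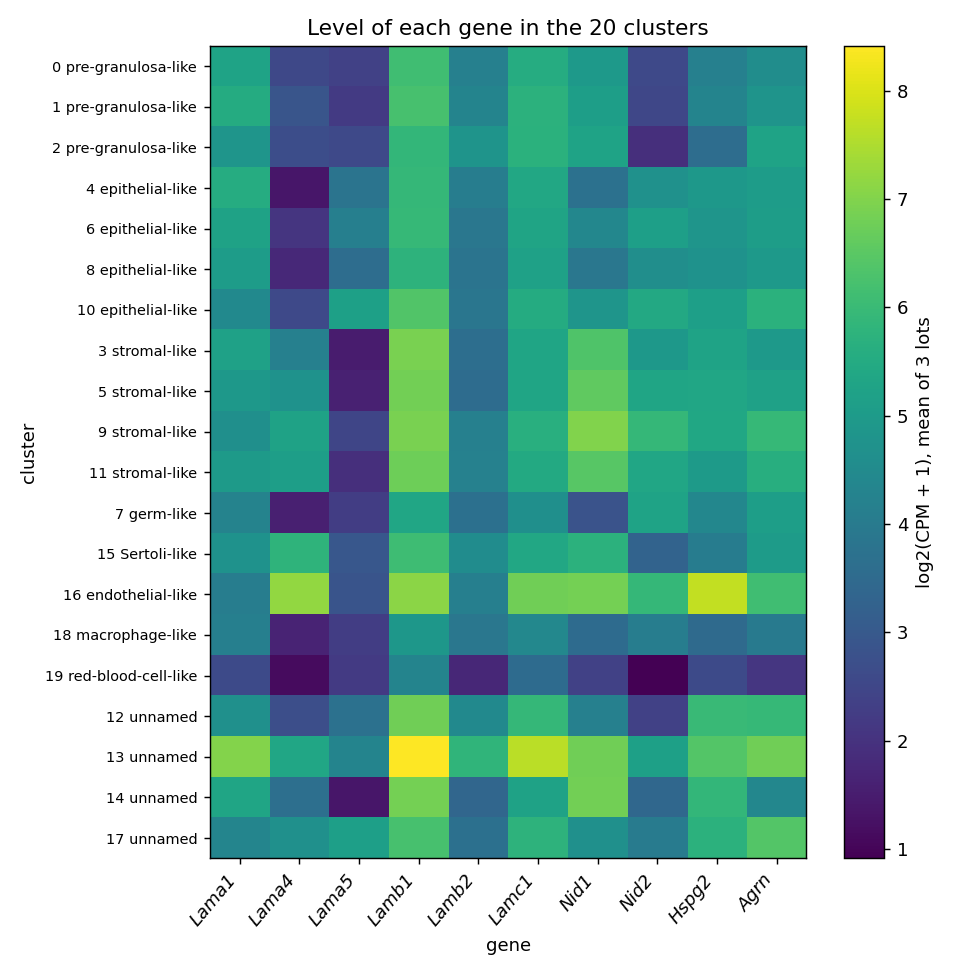
Mean level over 3 lots, as log2(CPM + 1) (colour), of the 10 genes (x axis) in the 20 clusters (y axis, with class names). Lama5 was brightest in epithelial-like cluster 10 (35.1 CPM), with unnamed cluster 17 close to it (34.5 CPM). Nid1 was brightest in stromal-like cluster 9 (126 CPM), and unnamed cluster 13 was bright for most genes.

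Across named classes, lot 29 was the lowest of the 3 lots in 54 of the 60 combinations of the 10 genes with 6 classes, and lot 30 was in the other 6. Over all tested genes the share lowest in lot 29 was 31.4% to 59.7%, depending on the class. On the log2(CPM + 1) scale the 10 genes lay a median of 0.40 (pre-granulosa-like) to 1.02 (endothelial-like) below the mean of lots 26 and 30, and the median of all genes lay 0.07 to 0.22 below. Genes in the top 25% by gene body, at least 59722 bases, which include 7 of the 10, lay 0.11 to 0.40 below. Lot 29 also had the fewest UMIs a cell (median 8949) and the lowest share of mitochondrial UMIs (median 0.840%, against 1.40% and 1.30%), and their part in the lower levels was not tested.

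**Figure D5:**
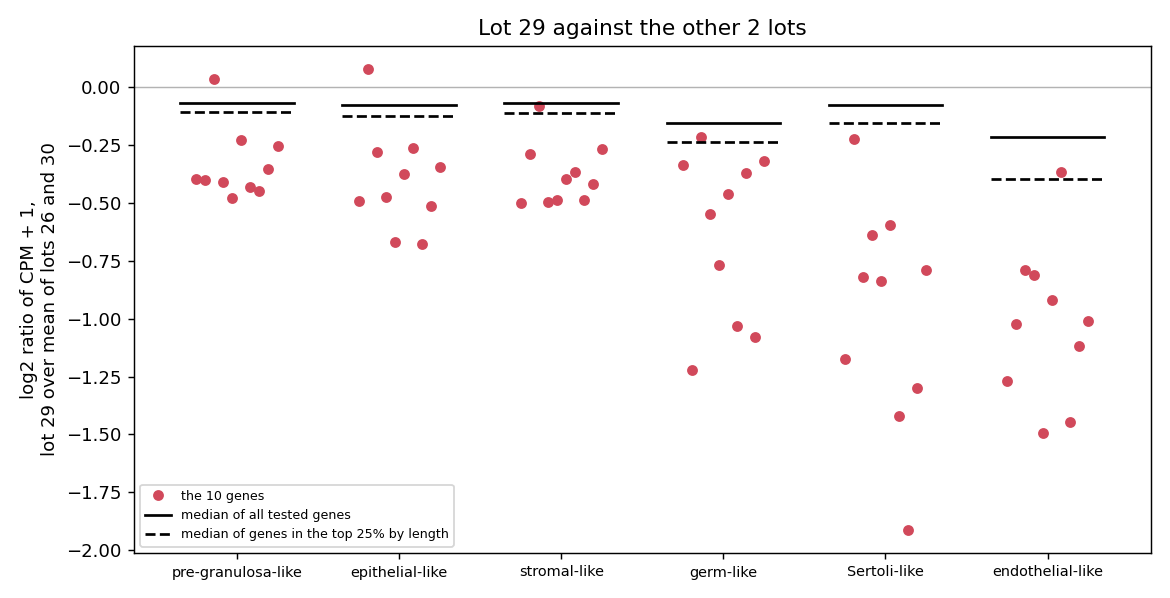
Log2 ratio of CPM + 1 in lot 29 over the mean of lots 26 and 30 (y axis) for the 10 genes (points) in 6 cell classes (x axis), with the median of all tested genes (solid line) and of the genes in the top 25% by gene body (dashed line). Nearly all points lie below both lines, most of all in endothelial-like cells (median fall of 1.02).

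The rest of the basement membrane machinery was read from lists of genes by role. The counts of these lists stand beside 23.9% of all genes called higher and 24.5% called lower in stromal-like against pre-granulosa-like cells, and 22.1% and 23.2% in epithelial-like against pre-granulosa-like cells. In the smaller classes these shares were 36.6% and 40.5% (germ-like), 19.6% and 21.9% (endothelial-like) and 17.4% and 19.3% (Sertoli-like). Collagen IV, the second network of basement membranes, and the vessel-associated collagens XV and XVIII were given as 8 genes, of which 7 were tested. Of these 6 were higher and Col18a1 was lower in stromal-like than in pre-granulosa-like cells, with a median log2 fold change of 1.03, and 4 were called between epithelial-like and pre-granulosa-like cells, with Col4a1 and Col4a2 lower and Col4a4 and Col4a6 higher. In endothelial-like cells Col15a1, Col4a2, Col4a1 and Col18a1 were higher and Col4a4, Col4a5 and Col4a6 lower. The ubiquitous chain Col4a1 stood at 127 ± 16 CPM in pre-granulosa-like, 71.9 ± 12.4 CPM in epithelial-like, 247 ± 21 CPM in stromal-like and 977 ± 372 CPM in endothelial-like cells. In germ-like cells 5 of the 7 were lower and none was higher.

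Among the other laminin chains, Lamc3 and Lama2 were low but differed between classes. Lamc3, a γ chain, was at 4.25 ± 0.95 CPM in epithelial-like and 0.137 ± 0.043 CPM in pre-granulosa-like cells (log2 fold change 4.87 ± 0.35, adjusted p = 1.12e-10). Lama2 was at 8.24 ± 0.86 CPM in stromal-like and 2.01 ± 0.38 CPM in pre-granulosa-like cells (1.92 ± 0.24, adjusted p = 7.29e-07). The part of free RNA in these low pre-granulosa-like levels was not tested, so the size of both folds is uncertain. Lama3 was higher in germ-like cells.

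Receptors for laminin, agrin and perlecan (13 genes, 10 tested) moved in both directions. In stromal-like against pre-granulosa-like cells 3 were higher, led by the integrin chain Itga1 (log2 fold change 3.30 ± 0.29), and 5 were lower, among them the laminin α5 receptor Bcam (-1.34 ± 0.15) and the dystroglycan gene Dag1 (-1.17 ± 0.18). In epithelial-like cells Itga1, Itga3 and Bcam were higher and Itga6 and Dag1 were lower than in pre-granulosa-like cells. Itga2 had the largest rise of the receptors in endothelial-like cells, at 29.7 ± 5.3 CPM, with a log2 fold change of 7.31 ± 0.31. The agrin receptor Lrp4 had the largest in Sertoli-like cells (4.40 ± 0.35). These ranks are by fold change and not by level. The part of free RNA in the levels they were set against was not tested. In germ-like cells 8 receptors were lower and Lrp4 was higher.

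Other basement membrane and linker proteins (13 genes) were all tested. In stromal-like against pre-granulosa-like cells 7 were higher and 4 lower, with Frem1, a linker of embryonic epithelia, at 55.2 ± 9.5 and 1.30 ± 0.34 CPM (log2 fold change 5.26 ± 0.20). The part of free RNA in the low Frem1 level was not tested, so the size of this fold is uncertain. Epithelial-like cells had 8 higher and 3 lower than pre-granulosa-like cells, led by Frem2 (2.84 ± 0.28). In Sertoli-like cells Tinagl1 (5.77 ± 0.24) and Fbln2 (5.02 ± 0.25) were highest among the 5 that rose, and in germ-like cells 11 of the 13 were lower and Npnt, an integrin ligand, was higher (2.31 ± 0.17, adjusted p = 6.29e-12).

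Enzymes of collagen IV assembly and crosslinking (9 genes) and of matrix remodelling (11 genes) were all tested. Against pre-granulosa-like cells, stromal-like cells had 6 assembly genes higher and none lower, led by the lysyl hydroxylase Plod2 (2.47 ± 0.12) and the crosslinking enzyme Loxl2 (2.12 ± 0.17). Of the remodelling genes 6 were higher and 3 lower, with the gelatinase Mmp2 at 162 ± 25 CPM in stromal-like, 64.8 ± 9.4 CPM in epithelial-like and 10.6 ± 1.8 CPM in pre-granulosa-like cells. In germ-like cells 9 of the 11 remodelling genes and 6 of the 9 assembly genes were lower, and the assembly genes P4ha2 and Plod1 were higher (0.51 ± 0.11 and 0.35 ± 0.12).

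Over the 24 sums of the named classes and lots, Lama4 and Nid1 had the same 2 nearest genes of 6206, Col4a2 (Pearson r of log2(CPM + 1) of 0.954 and 0.927) and Col4a1 (0.932 and 0.912). Among the members themselves the closest pairs were Lama4 with Nid1 (0.873) and Lamb1 with Lamc1 (0.868), and the least alike were Lama1 with Lama4 (0.279). The nearest genes of the others were Kat6b for Lama1 (0.921), Golim4 for Lamb1 (0.950), Ptprg for Lamc1 (0.928), Ier5l for Nid2 (0.922), Map4k5 for Hspg2 (0.934) and Igf2r for Agrn (0.952). Lama5 and Lamb2 were under the 20 CPM needed. The sums share lots, and both depth and the red-blood-cell-like sums move many genes together, so these values describe likeness only.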

How the data were processed

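The study profiled 3 lots of E12.5 FOSCs by 10X Genomics scRNA-seq. The authors deposited raw UMI counts per gene and barcode, made with UMI-tools, STAR 2.7 and featureCounts 2.0.1 on GRCm38 (tools and build per the submitters' processing notes). The annotation release and strand setting are not given in the sources used here. Barcodes with 200 to 9000 genes and at most 10% mitochondrial UMIs were kept. Cells were clustered in Seurat 5.3.0 (2000 variable genes, of which 22 of the 69 members and pathway genes were removed, 50 principal components, resolution 0.8). Clusters were named from 12 marker lists. A list's score was the mean over its markers of log2(CPM + 1) less the median of that value over the clusters. The best list had to reach 1, lead the next by 0.25, have 3 raised markers and have 2 in 60% of the cells. The form of this rule, and a chromaffin list used only to leave clusters unnamed, were settled after cluster values had been seen. Cluster 17 was left unnamed because under 2 mesonephric tubule markers were in 60% of its cells. Scrublet (scanpy 1.11.5, expected rate 8%) called 1811 doublets, which were kept in the main analysis.

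UMIs were summed per class and lot (at least 10 cells) and normalized by TMM. After filterByExpr, 13817 genes were tested in 1 quasi-likelihood fit of all class sums in edgeR 4.0.16, with Benjamini-Hochberg adjustment and a threshold of 0.05. SE is the log2 fold change over the square root of F. The test was also run on simulated counts. These were drawn independently for each sum, with no effect of the lot, so that run cannot speak to the pairing of sums. DESeq2 1.42.0 and the other settings are alternatives. The sums of a lot are paired by the shared pool: their deviations correlated with a median r of 0.485 in all 9 pairs of the 3 large classes (all over 0.1) and 0.116 in 84 pairs of all classes (48 over 0.1). P-values rest on the spread between lots within classes, pooled over all named classes. Except with the block, they treat the sums of a lot as independent, although there are only 3 pools. All 10 members were named. From each pathway list up to 3 called genes with the largest fold change were named, and others in counts of 5 or fewer were named after their values were seen. The members and lists were chosen with earlier results of these data known. The floor of a count of 0 is 3 UMIs, and it and all shares cover counting error only. 1 gene of the pathway lists is not reported here.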

Additional observations from a re-analysis of the deposited data

Results flagged for a closer look

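Unnamed cluster 13 entered none of the comparisons and held more of 5 of the 10 genes, in every lot, than any sum of a named class. The mean level over lots was 128.7 CPM for Lama1 (highest sum of a named class 45.7 CPM), 340.2 CPM for Lamb1 (186 CPM), 55.7 CPM for Lamb2 (42.8 CPM), 198.8 CPM for Lamc1 (149 CPM) and 110.7 CPM for Agrn (90.4 CPM). The cluster has 705 cells with a median of 2624 UMIs and 5.19% mitochondrial UMIs, where the other 19 clusters had at most 1.46%. Of its UMIs 25.7% came from genes in the top 25% by gene body, against 2.26% to 13.5% in the other clusters. The part of these in its levels was not tested. Groups of 3 lots are too small for a check of single outlying samples.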

How the results depend on the processing

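Of 840 values of a gene under an alternative, 763 kept their direction and their side of the threshold, 33 gained the call, 19 lost it and 25 changed sign, all 25 of genes that were not called. Unless stated, the cause was not tested. With the lot as a replicate block 11 calls were gained and none was lost, and the members called between epithelial-like and pre-granulosa-like cells went from 5 to 8. Leaving out 1 lot gave 3 to 6 calls there (3 without lot 30), and 1 to 2 in Sertoli-like cells (1 without lot 30), where removing doublets gave 4 and DESeq2 size factors, DESeq2 and a fit of only the classes compared gave 1 each. Over all genes, stromal-like against epithelial-like cells had 4244 calls, 7047 with the block and 2489 without lot 30, and endothelial-like cells had 5727 and 3655 without lot 26, in fits with fewer samples. The Lama4 share of stromal-like α UMIs was 44.1% at resolution 0.4 and 39.6% with doublets removed, which took the Lama1 share of pre-granulosa-like cells to 73.0%. Cells with all 3 chain types fell to 0.272% (pre-granulosa-like), 0.278% (epithelial-like) and 0.460% (stromal-like) at 2000 UMIs and stood at 11.3%, 19.1% and 14.5% without thinning, so depth sets these shares. Log2 fold changes that changed sign were those of Lama1 in epithelial-like cells (0.0113 at resolution 1.2, 0.0031 with 30 principal components, 0.0071 with the held-out genes put back, 0.0047 with every barcode, 0.0015 without a low-count filter, 0.0040 with only the classes compared, and -0.0678 to 0.0217 leaving out 1 lot) and of Lamc1 between stromal-like and epithelial-like cells (0.0194 at resolution 0.4, 0.0211 with doublets removed, 0.0389 with DESeq2 size factors, 0.0373 in DESeq2). Agrn in germ-like cells gave 0.0135 at resolution 0.4, 0.0041 with doublets removed, 0.11 with DESeq2 size factors and in DESeq2, 0.0103 with only the classes compared, and -0.0298 to 0.0513 leaving out 1 lot. Lamb2 in endothelial-like cells gave -0.20 (without lot 26) to 0.4443. In Sertoli-like cells Lama5 gave -0.48 with doublets removed and Agrn 0.0361 in DESeq2, and leaving out 1 lot gave -0.2645 to 0.6299 for Lamb2, -0.0610 to 0.6743 for Nid1 (called without lot 29, adjusted p = 0.0252), -0.2374 to 1.02 for Nid2 and -0.1609 to 0.17 for Agrn.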
